A study of Homo sapiens with 9 samples.

Results

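The genes described here are a set of 49 genes known as androgen-induced in prostate cells, outside the kallikreins, the keratins and the lipid and stress genes. A gene entered through the probe sets that the platform annotation pairs with its symbol alone. In this way 44 of the 49 were measured, by 91 probe sets, out of 11963 genes on the array, and SORD, ACSL3, HERC3, PGM3 and SLC45A3 are not analysed here. Of the 44 genes, 20 had more than 1 probe set, and the one with the highest mean log2 value stands for the gene unless another is named.

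The RNA came from LNCaP cells, an androgen-responsive human prostate cancer line from a lymph node metastasis, and was hybridised to Affymetrix arrays. All cultures spent 2 days beforehand in RPMI with 10% fetal bovine serum stripped of steroids on charcoal. The vehicle group then received ethanol and DMSO, the R1881 group 1 nM R1881 (a synthetic androgen that cells do not metabolise) with DMSO, and the gedunin group 1 nM R1881 with 20 µM gedunin, a limonoid from neem-family trees that is known to impair HSP90. There were 3 arrays per group, marked as biological replicates of 1 cell line, and no group had gedunin without androgen. Treatment lasted 24 h, except that the titles of the R1881 group give 6 h where its descriptions and protocols give 24 h, so the length of that treatment is not settled by the labels.

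Androgens act on prostate cells mainly by changing transcription. Steroid hormone signalling depends on HSP90 and its co-chaperones, and at its target genes it relies on pioneer factors such as FOXA1, which open chromatin, and on coactivators. In luminal prostate cells the genes that androgen induces encode secreted and membrane proteins, metabolic enzymes, kinases and transcription factors.

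Array medians lay between 52.4 and 54.5 intensity units, and log2 values correlated across genes at 0.996 to 0.998 within groups and at 0.972 to 0.983 between groups. Androgen-induced genes outside the set were used to check the labels. KLK3, which encodes prostate-specific antigen, measured 11800 ± 513 on the arrays labelled vehicle, 1340 ± 104 on those labelled R1881 and 7220 ± 384 on the gedunin arrays (intensity, mean ± SD, n = 3). FKBP5 measured 1810 ± 147, 45.1 ± 3.15 and 122 ± 16 in the same order. These levels run opposite to the labels vehicle and R1881, so the text writes "labelled vehicle" and "labelled R1881", and any direction that involves these groups rests on labels that androgen genes contradict. Which label is right was not tested. Were these labels exchanged, each value of the first comparison would change its sign, and the second and the third comparisons would trade places. The 6 measured luminal markers averaged above the lowest array median in every group but moved between groups in different directions. In the first comparison KRT8 (-2.98) and KRT18 (-2.14) fell and FOLH1 (1.40) and HOXB13 (0.60) rose, and in the second ACP3 fell by 2.61 on the log2 scale. By contrast, the basal keratin genes KRT5, KRT14 and KRT15 lay under the lowest array median in all groups. Above it in every group lay 3 of 5 fibroblast, 1 of 3 leukocyte, 0 of 3 endothelial and 1 of 3 neuroendocrine genes. Group means, in the order labelled vehicle, labelled R1881 and gedunin, were 181, 185 and 185 for COL1A1 and 67.5, 66.4 and 68.7 for CD3E. A level above this median was therefore not taken as a sign that a gene is expressed. Of markers of other cell types, 0 of 5 fibroblast, 0 of 3 leukocyte and 0 of 3 endothelial genes were called in any comparison. KRT5 was called in the first (-0.20) and the neuroendocrine marker ENO2 in all 3 (0.86, -0.26 and 0.60, in order). Over all genes, 30.3%, 27.4% and 26.9% were called in the 3 comparisons, in order. With so few genes per list, 0 calls say little about other cell types. The part of these markers in the results was not tested.

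Androgen's effect on these genes in hormone-starved cells is the question of the first comparison. On the arrays labelled R1881, 39 of the 44 members were lower than on those labelled vehicle, 2 were higher and 3 did not pass (limma, Benjamini-Hochberg adjusted p under 0.05 over all genes). Over all 11963 genes, 13.6% were called lower and 16.7% higher, 30.3% in all. The arrays of the 2 groups did not overlap for 39 members that were lower and 3 that were higher, against 18.4% and 21.4% of all genes. The median log2 difference was -1.75 over the members and 0.00 over all genes. The fall was at least 2-fold for 28 members, a size of fall reached by 2.02% of all genes. The largest falls were those of TMPRSS2 (-4.08), NDRG1 (-3.85) and GNMT (-3.84). TRIB1 (2.10) was the 1 member that rose at least 2-fold, as did 1.30% of all genes.

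The second comparison asks what gedunin does beside androgen. With gedunin, 31 of 44 members exceeded their level on the arrays labelled R1881, 5 were lower and 8 did not pass, where 14.0% of all genes were called higher and 13.4% lower, 27.4% in all. Groups did not overlap for 31 members that were higher and 5 that were lower, against 18.4% and 19.2% of all genes. The median log2 difference was 0.55 over the members and -0.01 over all genes, and 16 members rose at least 2-fold, as did 1.65% of all genes, while 3 fell at least 2-fold, against 0.836%. If the titles' 6 h holds for the R1881 group, the length of treatment differs along with the agent in both the first and the second comparison, and their effects cannot be told apart. The third comparison sets the gedunin arrays against those labelled vehicle, and 40 members were lower, 2 were higher and 2 did not pass, where 11.9% of all genes were called lower and 15.0% higher, 26.9% in all. Groups did not overlap for 40 members that were lower and 2 that were higher, against 18.8% and 19.5% of all genes. A fall of at least 2-fold was seen for 17 members and 1.03% of all genes, and such a rise for 1 member, TRIB1, and 1.18% of all genes. The median was -0.82 over the members and -0.01 over all genes. The 3 comparisons share arrays, so they are not independent of each other.

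**Figure D1:**
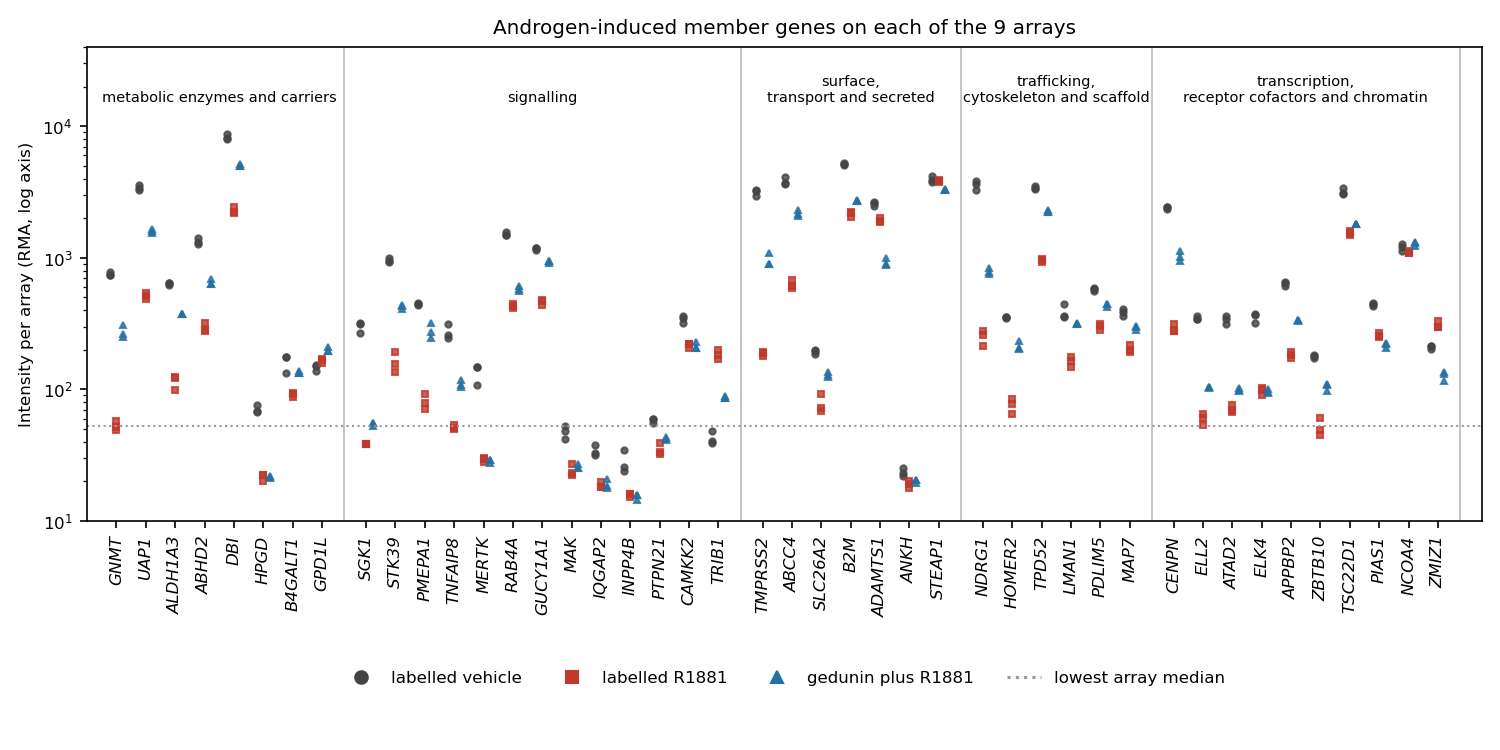
Intensity of the 44 members on each array (log axis), grouped by role, with 3 points per group and the lowest array median (52.4) as a dotted line. For most members the arrays labelled vehicle are highest, those labelled R1881 lowest and the gedunin arrays lie between them, as for TMPRSS2, while HPGD, MERTK and ELK4 have gedunin arrays at the level of the arrays labelled R1881.

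Surface, transport and secreted proteins comprised 7 measured members, of which 6 were lower in the first comparison and 1 did not pass. Beside the counts of this and each later role stand the shares of all genes. In the first comparison 13.6% were called lower and 16.7% higher. In the second 14.0% were called higher and 13.4% lower, and in the third 11.9% lower and 15.0% higher. TMPRSS2, a transmembrane serine protease whose androgen-driven promoter is fused to ETS genes in many prostate tumours, measured 3220, 3298 and 2957 on the arrays labelled vehicle, 191, 190 and 179 on those labelled R1881, and 889, 892 and 1095 on the gedunin arrays. None of the groups overlapped, and the gedunin arrays lay between the others. TMPRSS2 was 16.9-fold lower on the arrays labelled R1881 than on those labelled vehicle (log2 difference -4.08 ± 0.08, SE, limma adjusted p = 1.27e-12) and stood 5.11-fold above the former with gedunin (2.35 ± 0.08, adjusted p = 2.88e-10).

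ABCC4, an efflux pump for organic anions and cyclic nucleotides, measured 3643, 4119 and 3677 with the vehicle label, 613, 672 and 586 with the R1881 label, and 2151, 2078 and 2297 with gedunin. Its 3 groups were again apart, with a log2 difference of -2.61 ± 0.07 in the first comparison and 1.80 ± 0.07 in the second. SLC26A2, a sulfate transporter, ran from 187, 197 and 200 to 72.6, 68.5 and 92.8 and stood at 128, 136 and 125 with gedunin, in the same group order. B2M, the light chain of MHC class I molecules, measured 5133, 5268 and 5108, then 2177, 2227 and 2031, then 2679, 2737 and 2722, so that its gedunin arrays lay close above the arrays labelled R1881 (log2 difference 0.34 ± 0.05, adjusted p = 0.000319).

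ADAMTS1 and STEAP1 were lowest with gedunin, unlike most members. ADAMTS1, a secreted metalloprotease, measured 2621, 2462 and 2668 with the vehicle label, 1913, 2010 and 1873 with the R1881 label and 895, 879 and 1001 with gedunin. Its gedunin arrays were thus the lowest of the 3 groups, 2.09-fold under the arrays labelled R1881 (log2 difference -1.06 ± 0.06, adjusted p = 4.59e-08). STEAP1, a metalloreductase-like membrane antigen of prostate cells, measured 3789, 4178 and 3867, then 3814, 3871 and 3756, then 3302, 3336 and 3302. The first comparison gave -0.05 for it (95% interval -0.17 to 0.07), and the gedunin arrays were lower by -0.20 and -0.25 in the second and the third. ANKH, a membrane protein of pyrophosphate export, averaged 23.4, 19.0 and 20.1, under the lowest array median in every group. ANKH was called lower in the first and the third comparisons (-0.30 and -0.22), and the third call was lost without the first or second array labelled vehicle (adjusted p = 0.0681 and 0.11), without the first or the third gedunin array (0.0605 and 0.103), or with an offset of 16 before log2 (0.0543).

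Among the 8 measured metabolic enzymes and carriers, 7 were lower in the first comparison and 7 were higher in the second, with no called change the other way in either. GNMT, which methylates glycine to sarcosine and so consumes the methyl donor S-adenosylmethionine, measured 746, 774 and 738 on the arrays labelled vehicle, 52.1, 57.4 and 48.8 on those labelled R1881 and 252, 265 and 309 with gedunin. The arrays labelled R1881 lay at the level of the array medians, 14.3-fold below the arrays labelled vehicle. Gedunin arrays were 5.21-fold above those labelled R1881 (log2 difference 2.38 ± 0.08, limma adjusted p = 2.42e-10), the largest rise of any member in the second comparison. These folds are approximate, since levels near those medians may be mostly background.

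UAP1, the enzyme that makes UDP-N-acetylglucosamine for glycosylation, measured 3292, 3579 and 3389, then 485, 513 and 541, then 1539, 1608 and 1655. ALDH1A3, which makes retinoic acid from retinaldehyde, measured 616, 647 and 643, then 121, 99.5 and 125, then 373, 376 and 376. ABHD2, a serine hydrolase, measured 1316, 1266 and 1413, then 280, 278 and 319, then 691, 637 and 634. In each of these genes the order was labelled vehicle, gedunin, labelled R1881 from high to low, with no overlap. Log2 differences in the first and second comparisons were -2.74 and 1.64 for UAP1, -2.47 and 1.71 for ALDH1A3, and -2.19 and 1.16 for ABHD2, each with an SE of at most 0.08.

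DBI, the acyl-CoA binding protein, measured 8320 ± 413 with the vehicle label, 2284 ± 141 with the R1881 label and 5048 ± 110 with gedunin (mean ± SD, n = 3). B4GALT1, a Golgi galactosyltransferase, differed by -0.82 in the first comparison and 0.57 in the second. In the third comparison it gave -0.25 and did not pass (adjusted p = 0.0608), but passed without the second array labelled vehicle (-0.38, adjusted p = 0.000505), which read 134 beside 177 and 175. It also passed with the mean of its probe sets (-0.29, adjusted p = 0.000794) and with its most variable probe set (-0.47, adjusted p = 0.0172). GPD1L, a glycerol-3-phosphate dehydrogenase-like enzyme, went against most members in the third comparison. It measured 154, 138 and 150, then 167, 170 and 158, then 196, 194 and 210. Its gedunin arrays were the highest, with 0.28 ± 0.06 in the second comparison and 0.44 ± 0.06 in the third. The first gave 0.16 and did not pass (limma adjusted p = 0.0636). This difference passed without the third array labelled R1881 (0.048) and with filters on low signal (0.0399 and 0.0394). It also passed with an offset of 16 before log2 (0.0427) and with the mean of all probe sets of each gene (0.0476).

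Trafficking, cytoskeleton and scaffold members comprised 6 measured genes, all of them lower in the first comparison, higher in the second and lower in the third. NDRG1, a stress-responsive cytoplasmic protein, measured 3652, 3263 and 3829, then 215, 257 and 276, then 780, 747 and 837. It was 14.4-fold lower on the arrays labelled R1881 (log2 difference -3.85 ± 0.09, adjusted p = 4.67e-12), and gedunin arrays stood 3.17-fold above those and 4.54-fold below the arrays labelled vehicle.

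HOMER2, a scaffold protein, measured 355, 347 and 353, then 64.6, 84.1 and 77.3, then 203, 205 and 231. TPD52, a vesicle trafficking protein whose gene is often amplified in tumours, measured 3356, 3522 and 3399, then 933, 975 and 954, then 2246, 2308 and 2246. LMAN1, the cargo receptor for glycoproteins leaving the endoplasmic reticulum, measured 358, 445 and 354, then 147, 164 and 176, then 318, 316 and 316. The gedunin arrays of LMAN1 lay nearest to the arrays labelled vehicle within this role. The third comparison gave -0.28 for LMAN1 (adjusted p = 0.0355), a call that was lost without the second array labelled vehicle (adjusted p = 0.137), without any 1 of the gedunin arrays (0.0815 to 0.0898) and in its other probe set (-0.05). PDLIM5 and MAP7, which bind actin-linked and microtubule structures, differed by -0.95 and -0.93 in the first comparison and by 0.56 and 0.54 in the second.

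Signalling genes formed the largest role, with 13 measured members, 12 of them lower and 1 higher in the first comparison. In the second, 7 were higher, 1 was lower and 5 did not pass. SGK1, a kinase induced by steroid hormones that regulates ion transport and survival, measured 315, 318 and 267 on the arrays labelled vehicle, 38.1, 38.3 and 38.6 on those labelled R1881 and 52.5, 55.1 and 55.1 with gedunin. The gedunin arrays lay near the lower group: the log2 difference was -2.96 ± 0.07 in the first comparison, 0.50 ± 0.07 in the second and -2.46 ± 0.07 in the third. Its level on the arrays labelled R1881 was under the lowest array median and may be mostly background, which makes the folds approximate.

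STK39, a kinase that controls cation-chloride cotransport, measured 946, 932 and 993, then 157, 135 and 191, then 431, 411 and 439. PMEPA1, a membrane inhibitor of TGF-beta signalling, measured 447, 437 and 456, then 78.6, 92.0 and 70.5, then 271, 246 and 317. TNFAIP8, a regulator of apoptosis, measured 257, 313 and 244, then 53.8, 50.5 and 49.6, then 107, 105 and 117. All 3 groups were apart in each of these genes. The gedunin arrays stood above the arrays labelled R1881 by 2.68-fold for STK39, 3.46-fold for PMEPA1 and 2.14-fold for TNFAIP8. The last of these is approximate, since TNFAIP8 averaged 51.3 on the arrays labelled R1881, under the lowest array median. PMEPA1 averaged 80.3 there, above that median but under the fibroblast marker COL1A1 (185), so its fold may be approximate too. GUCY1A1, a subunit of the nitric oxide receptor guanylate cyclase, averaged 1170, 460 and 935, and RAB4A, a GTPase of endosome recycling, averaged 1519, 430 and 580. In log2 terms GUCY1A1 differed by -1.35 and 1.02, and RAB4A by -1.82 and 0.43, in the first and second comparisons.

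Promoter windows of SGK1, STK39 and PMEPA1 are shown because they belong to the 3 members with the largest first-comparison difference whose windows hold the letters AGAACA or the reverse complement TGTTCT, the core of the androgen response element. The windows are from RefSeq (GRCh38.p14), 5′ to 3′ on the minus strand, from 250 bases before to 20 after a transcription start, with those letters in capitals.
SGK1, chr6:134177842-134178111: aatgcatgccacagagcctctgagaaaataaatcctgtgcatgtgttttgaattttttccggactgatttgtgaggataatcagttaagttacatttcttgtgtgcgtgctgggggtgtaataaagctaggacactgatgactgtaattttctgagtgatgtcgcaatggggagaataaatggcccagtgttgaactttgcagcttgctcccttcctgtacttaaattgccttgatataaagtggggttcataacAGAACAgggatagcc
STK39, chr2:168247576-168247845: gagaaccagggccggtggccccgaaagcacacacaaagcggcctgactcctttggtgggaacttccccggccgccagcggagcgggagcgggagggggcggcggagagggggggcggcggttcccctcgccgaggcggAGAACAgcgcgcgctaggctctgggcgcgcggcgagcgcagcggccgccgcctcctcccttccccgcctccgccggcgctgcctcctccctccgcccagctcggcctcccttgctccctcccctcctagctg
PMEPA1, chr20:57710558-57710827: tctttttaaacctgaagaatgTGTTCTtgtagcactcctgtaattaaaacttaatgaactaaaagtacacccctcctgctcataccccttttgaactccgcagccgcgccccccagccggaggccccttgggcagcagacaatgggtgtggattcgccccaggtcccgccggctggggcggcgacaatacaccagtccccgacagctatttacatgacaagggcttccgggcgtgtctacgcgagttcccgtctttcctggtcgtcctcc
The letters begin 6 bases after the start in SGK1, 112 bases before it in STK39 and 229 bases before it in PMEPA1. Another PMEPA1 window holds them 23 bases after its start.

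In all, 35 of the 44 measured members had windows of 300 bases in that table, 67 windows together, since a gene may have several starts. TMPRSS2 and NDRG1, with the largest falls in the first comparison, were among the members without a window, so their promoters were not searched. On either strand, 6 of these windows (8.96%) held AGAACA, against 14.8% of all 35116 windows. Counted by gene, 5 of the 35 members had such a window, against 4790 of all 27305 genes with windows. The difference was not tested. The full palindrome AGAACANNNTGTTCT, which overlaps with the shorter letters, was in 0 member windows and in 1 window of all. A match is a description of letters and not a measured binding site, and elements further from the start were not searched.

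TRIB1, a pseudokinase that brings substrates to a ubiquitin ligase, was the signalling member that went against the rest. It measured 39.2, 48.4 and 40.7 with the vehicle label, 181, 170 and 198 with the R1881 label and 88.5, 86.5 and 86.4 with gedunin. The order of the groups was the reverse of that of TMPRSS2: the R1881 label went with a 4.29-fold higher level of TRIB1 (log2 difference 2.10 ± 0.08, adjusted p = 4.51e-10), and gedunin arrays lay 2.09-fold below those. Its arrays labelled vehicle were under the lowest array median, so the fold is approximate.

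Transcription factors, receptor cofactors and chromatin proteins comprised 10 measured members, with 8 lower and 1 higher in the first comparison and 7 higher and 2 lower in the second. CENPN, a centromere protein, measured 2448, 2447 and 2340, then 278, 278 and 314, then 1018, 939 and 1126. It was 8.33-fold lower on the arrays labelled R1881 and with gedunin stood 3.54-fold above that level. ELL2, a transcription elongation factor, measured 343, 360 and 340, then 64.4, 60.8 and 53.7, then 102, 105 and 105. ATAD2, a bromodomain coactivator, measured 314, 343 and 362, then 67.4, 75.8 and 69.8, then 98.2, 102 and 97.5. For ELL2 and ATAD2 the gedunin arrays lay above the arrays labelled R1881 without overlap, by 0.81 and 0.49 on the log2 scale. They lay 3.34-fold and 3.41-fold below the arrays labelled vehicle.

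APPBP2, which binds the amyloid precursor protein, and ZBTB10, a zinc finger repressor, differed by -1.81 and -1.79 in the first comparison and by 0.88 and 1.02 in the second. ZBTB10 averaged 51.6 on the arrays labelled R1881, under the lowest array median, so its differences are approximate. TSC22D1, a leucine zipper protein, averaged 3174, 1545 and 1810, and its second-comparison rise of 0.23 was lost when the arrays were quantile-normalised again (0.13, adjusted p = 0.081). NCOA4, a nuclear receptor coactivator that also carries ferritin to lysosomes, averaged 1200, 1103 and 1284. The first and the third comparisons gave -0.12 and 0.10 for NCOA4 and did not pass (95% intervals -0.25 to 0.01 and -0.03 to 0.23). Its second-comparison rise of 0.22 was lost on renormalisation (0.08, adjusted p = 0.37) and without the third gedunin array (0.20, adjusted p = 0.0578).

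ZMIZ1 and PIAS1, which act as transcriptional coregulators, were lowest with gedunin. ZMIZ1, a coactivator related to the PIAS family, measured 214, 203 and 214, then 296, 298 and 329, then 116, 135 and 130. ZMIZ1 was thus higher on the arrays labelled R1881 (0.55 ± 0.07, adjusted p = 3.97e-05) and lower on the gedunin arrays than on either other group (-1.28 ± 0.07 and -0.73 ± 0.07). PIAS1, a SUMO ligase, measured 431, 452 and 447, then 268, 253 and 248, then 226, 223 and 205. The gedunin arrays of PIAS1 lay below the arrays labelled R1881 by a little, at -0.24 ± 0.06 (adjusted p = 0.00802), and its other probe sets gave -0.15 and -0.12, which were not called.

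**Figure D2:**
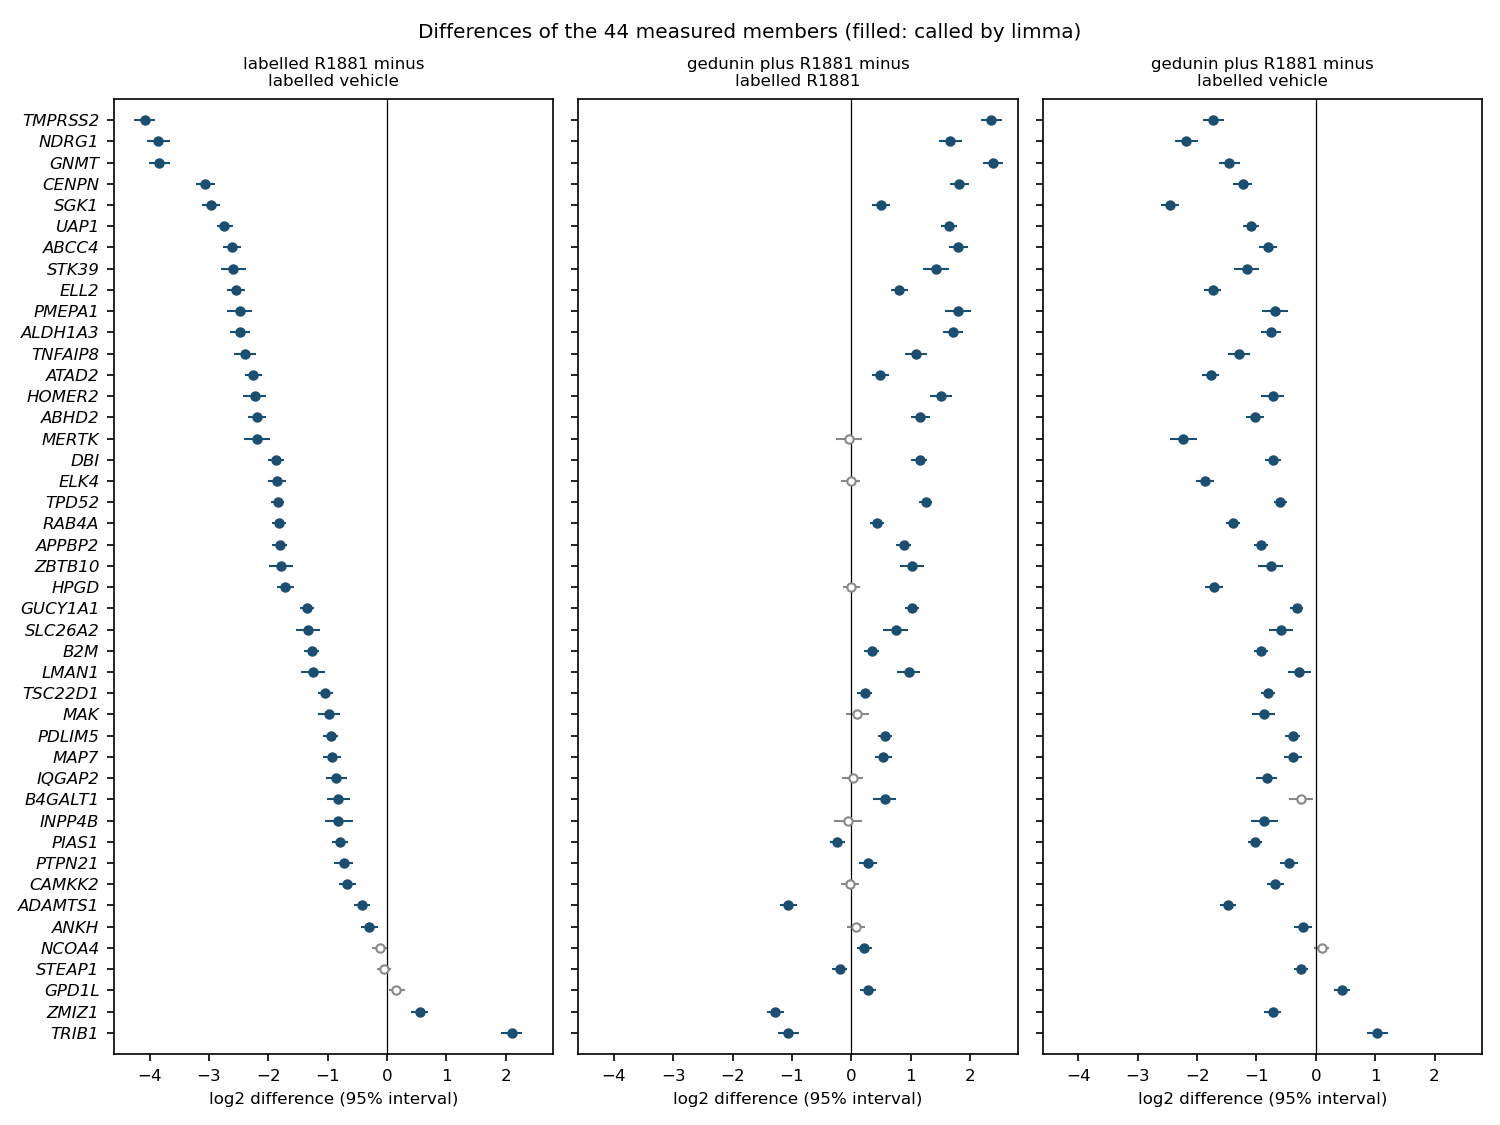
Log2 differences of the 44 members in the 3 comparisons, ordered by the first, with 95% intervals from limma; filled points passed the adjusted threshold. TMPRSS2 (-4.08) and TRIB1 (2.10) mark the ends of the first panel, and the 8 open points of the second panel sit near 0.

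The 8 members that did not pass in the second comparison were HPGD, MERTK, ELK4, CAMKK2, MAK, IQGAP2, INPP4B and ANKH. All of them were lower in the first and in the third comparison. ELK4, an ETS transcription factor, measured 368, 318 and 371 with the vehicle label, 89.9, 99.1 and 103 with the R1881 label, and 95, 101 and 94 with gedunin. The gedunin arrays and those labelled R1881 overlapped, with a difference of -0.01 (95% interval -0.17 to 0.15), and both lay apart from the arrays labelled vehicle (first comparison -1.85 ± 0.07). CAMKK2, the kinase that activates AMPK in response to calcium, averaged 344 ± 23.5, 216 ± 9.57 and 213 ± 11.9, with a second-comparison difference of -0.02 (-0.17 to 0.13).

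MERTK, a receptor tyrosine kinase, measured 108, 149 and 148, then 30.3, 28.1 and 29.4, then 29.1, 27.6 and 28.8, with a second-comparison difference of -0.04 (95% interval -0.26 to 0.18). HPGD, which inactivates prostaglandins, measured 69.0, 76.5 and 67.6, then 22.4, 22.3 and 20.2, then 21.7, 22 and 21.1, with a difference of 0.00 (-0.14 to 0.14). Both genes lay under the lowest array median in the groups that did not differ, where a change near background could not be seen. The same holds for MAK, a kinase first found in male germ cells, and for IQGAP2, INPP4B and ANKH, which lay under it in all 3 groups. INPP4B, a phosphoinositide phosphatase, averaged 28.1, 15.7 and 15.2, and its second-comparison difference was -0.05 (-0.29 to 0.18). ELK4 and CAMKK2 were thus the 2 of these 8 that stayed above the lowest array median in every group. ELK4 averaged 97.4 with the R1881 label and 96.6 with gedunin, below the fibroblast marker COL1A1 (185 and 185). Whether its level there was background was not tested.

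The members' probe sets were also fitted singly, over all 19064 probe sets with 1 symbol. Of the 91 probe sets, 79 were lower and 2 higher in the first comparison, where 28.1% of all probe sets were called in either direction. In the second, 56 were higher and 5 lower, against 25.2% of all called. No member had probe sets called in opposite directions in any of the 3 comparisons. Sizes disagreed more: in 11 of the 20 members with several probe sets, another probe set lay over 1.5-fold from the one used in the first comparison. The other TMPRSS2 probe set gave -2.48 and 1.2 in the first and second comparisons, in place of -4.08 and 2.35. The other CENPN probe set gave -4.72 and 3.12, from an average of 24.8 on the arrays labelled R1881. Another pair of CAMKK2 probe sets gave -1.49 and -1.38 in the first comparison and -0.06 and 0.11 in the second, so this gene's fall was over 1.5 times larger there, and its second comparison remained uncalled.

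**Figure D3:**
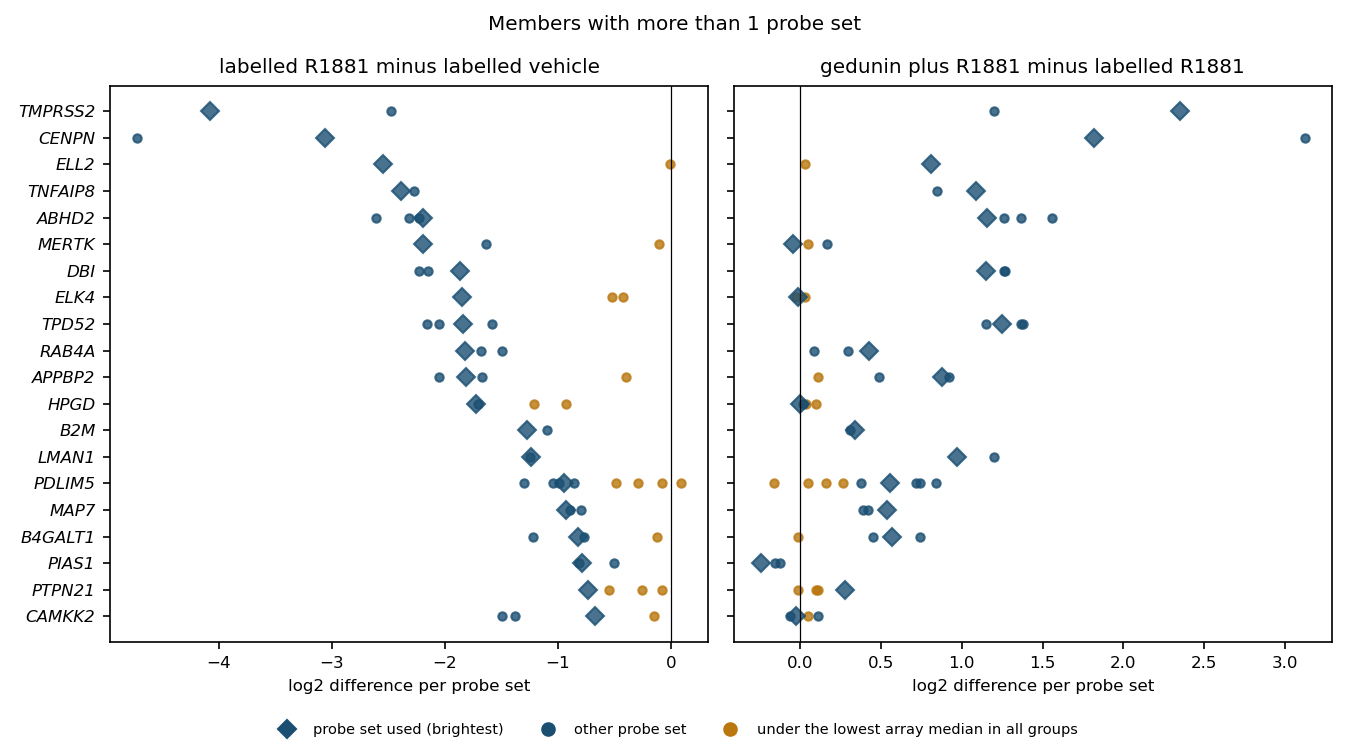
Log2 difference of each probe set of the 20 members with more than 1, in the first and second comparisons; diamonds are the probe sets used, and orange points lie under the lowest array median in all groups. The probe sets nearest 0 in the first panel, such as the second of ELL2 at -0.01, are among the orange ones.

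Pioneer factors and nuclear receptor coregulators were examined as the other part of this pathway. Of 20 listed genes 15 were measured. In the first comparison 6 were higher and 3 lower, in the second 1 was higher and 8 lower, and in the third 4 were higher and 5 lower. The shares of all genes called higher and lower were 16.7% and 13.6% in the first, 14.0% and 13.4% in the second, and 15.0% and 11.9% in the third. NCOA2, a p160 coactivator, averaged 219 ± 4.16, 530 ± 39.2 and 324 ± 15.0 (n = 3), and GATA2, a pioneer factor, 248 ± 12.0, 488 ± 19.5 and 280 ± 11.7, so both were highest on the arrays labelled R1881. HOXB13, a prostate homeobox factor, averaged 762 ± 94.9, 1150 ± 76.6 and 544 ± 69.1, and NRIP1, a corepressor, 257 ± 6.76, 276 ± 15.6 and 148 ± 8.36. FOXA1 averaged 465 ± 5.30, 474 ± 20.5 and 369 ± 22.9. HOXB13, NRIP1 and FOXA1 were lowest on the gedunin arrays, with second-comparison differences of -1.08, -0.90 and -0.36. GRHL2, an epithelial factor, was the gene that rose there (log2 difference 0.28, adjusted p = 0.000958, limma), from 293 ± 6.62 to 357 ± 4.42.

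**Figure D4:**
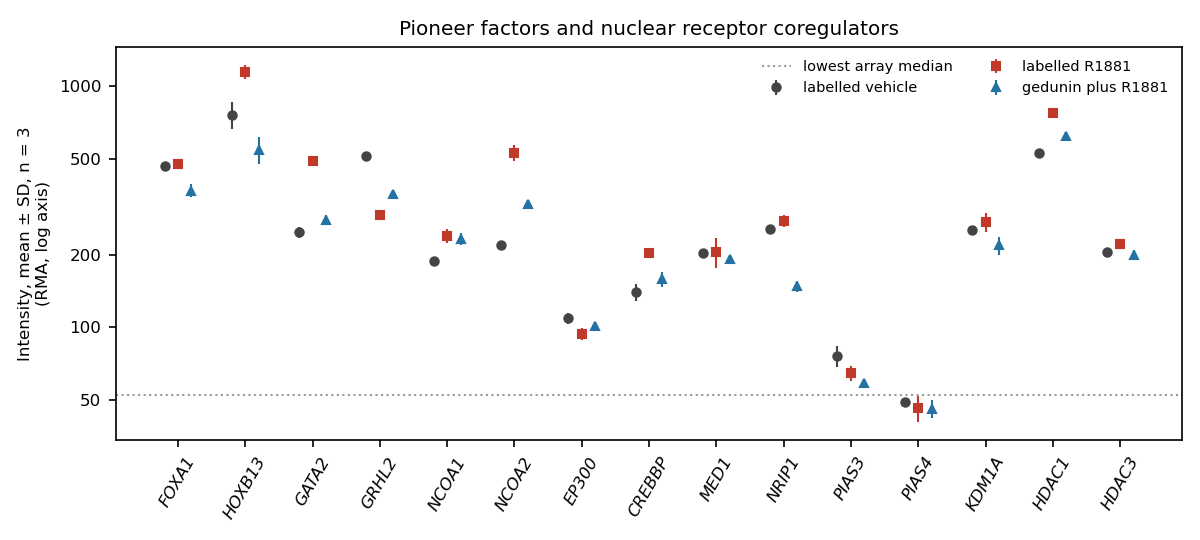
Mean intensity ± SD (n = 3, log axis) of the 15 measured pioneer factors and coregulators in the 3 groups, with the lowest array median dotted. NCOA2 and GATA2 are highest on the arrays labelled R1881, and HOXB13 and NRIP1 are lowest on the gedunin arrays.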

How the data were processed

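The authors deposited linear intensities for 22277 probe sets on every array; the submitters' processing notes name RMA, without software or version. Because RMA equalises the arrays' distributions, it hides differences in RNA content between cells, and less RNA per cell cannot be told from fewer cells of a kind. After log2 transformation, the 19064 probe sets with 1 gene symbol were used, leaving out 62 controls, 1043 with several symbols and 2108 with none. Each of 11963 genes was represented by its probe set with the highest mean log2 value. The tests are two-sided contrasts of a single limma fit to all 9 arrays (version 3.58.1, R 4.3.3, lmFit and eBayes), and p-values were adjusted by Benjamini-Hochberg over 11963 genes, with a threshold of 0.05. On simulated data with 11963 genes, 50 genes were changed at each size of change. In the 3 comparisons, in order, 38%, 36% and 40% of 1.2-fold and 92%, 96% and 88% of 1.5-fold changes were recovered. All 2-fold changes (100%) were recovered, and unchanged genes gave 6, 8 and 2 false calls. The measured data had many more called genes, which moves the adjusted threshold, so these rates need not hold for them. Precision is limited by 3 arrays per group. The labels mark biological replicates without saying whether these were separate cultures. The p-values rest on the variation between these arrays, with each gene's variance moderated over all genes, and need not reflect variation between cultures.

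Members, lists and tests were chosen with earlier results of these data known. Per-array values are given for up to 4 called members per role with the largest first-comparison difference and 2 with the largest second-comparison one, and for members called against the direction of most. Those of HPGD and MERTK fall outside that rule and were added after their values were seen. Alternatives covered the probe set, normalization, low-signal filters, an offset of 16, the variance model, the arrays fitted, a replicate block and each array left out. Replicate numbers are shared across groups, but the titles name no shared source, so no block was used. Deviations of same-numbered arrays correlated between -0.11 and 0.13, and those of different-numbered arrays between -0.15 and 0.17.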

Additional observations from a re-analysis of the deposited data

How the results depend on the processing

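Over 20 alternatives, called members numbered 36 to 42 in the first comparison, 34 to 36 in the second and 37 to 43 in the third, with the lowest counts of the first and the third where a filter on low signal left fewer members to test. Median member differences ranged from -1.83 to -1.32, from 0.44 to 0.78 and from -0.87 to -0.73 in the same order, and none changed sign. The first median was -1.32 with the mean of all probe sets and -1.42 with an offset of 16 before log2. The second was 0.44 with the mean of all probe sets, and 0.78 and 0.66 with filters that kept 38 and 40 members. With a replicate block, called members numbered 41, 36 and 43, and the medians were -1.75, 0.55 and -0.82; the block added a call of B4GALT1 in the third comparison and changed no other member's call. Of 2610 member values under the alternatives, 15 lost and 12 gained a call and 0 reversed, all in 7 genes: ANKH, B4GALT1, GPD1L, LMAN1, NCOA4, PTPN21 and TSC22D1. PTPN21, a tyrosine phosphatase, lost its second-comparison rise (0.28) with the mean of its probe sets (0.12, adjusted p = 0.126). PTPN21 averaged 35 on the arrays labelled R1881 and 42.3 with gedunin, both under the lowest array median, so that rise is approximate. Intensities under the lowest array median, 52.4, limit at least 5, 10 and 7 members on the arrays labelled vehicle, labelled R1881 and with gedunin. Levels above that median may be limited too. On the arrays labelled R1881 the fibroblast marker COL1A1 averaged 185, and GNMT (52.8), ELL2 (59.6), ATAD2 (71) and PMEPA1 (80.3) lay below it. Whether these levels were background was not tested, so the folds of such members may also be approximate.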
